A study of Mus musculus with 145 samples.

Results

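Expression of 9 chemokine receptor genes of leukocytes was followed through 65 groups of sorted mouse cells on Affymetrix arrays: Ccr2, Ccr4, Ccr7, Ccr9, Cxcr3, Cxcr4, Cxcr5, Cxcr6 and Cx3cr1. They are 9 of the 19752 gene symbols that a probe set (the oligonucleotides that measure a transcript) carried alone. The set was defined by gene symbols, with earlier results of these data known, and a single probe set measured each gene. Chemokine receptors are G protein-coupled receptors on the cell surface that sense gradients of small secreted proteins, the chemokines, and steer the cell along them through Gi proteins, Rac activation and integrins. Ccr7 and Cxcr5 guide lymphocytes into the T cell zones and B cell follicles of lymph nodes, Ccr9 guides them to thymus and gut, and Ccr4, Cxcr3 and Cxcr6 are known from activated T cells entering skin, inflamed or other peripheral tissue. Ccr2 brings monocytes out of the bone marrow, Cx3cr1 marks patrolling monocytes and killer lymphocytes, and Cxcr4 holds blood cells in the marrow.

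The groups covered T cells of lymph node and spleen, thymocytes, monocytes, macrophages, dendritic cells, granulocytes, mast cells, splenic B cells, thymic epithelium and lymph node stroma. Of them 12 held 1 array, 28 held 2, 23 held 3 and 2 held 4. Naive CD4 and CD8 T cells (CD62L high, CD44 low) from lymph nodes of male C57BL/6 mice aged 6 weeks were measured at 1, 5, 24, 48 and 96 h of culture with beads carrying antibodies to CD3 and CD28, and in controls labelled CTR with no time, whose treatment label names the same culture. CD4 T cells came from spleens as naive cells (CD44-), as effectors 8 days and as memory cells 30 days after LCMV, the lymphocytic choriomeningitis virus, both CD44+ CD11a+ CD49d+, from male C57BL/6J or C57BL/6 mice aged 6 weeks. CD8 effectors labelled Tbet+ and Tbet-, 6 days after LisOVA, a Listeria infection, came from male B6 mice aged 45 days, bear the OT1 title of T cells with an ovalbumin-specific receptor, and differ in the CD45 allele as well (CD45.2+ and CD45.1+). A second pair from the same kind of mice, 8 days after LisOVA and all CD45.1+, was sorted as KLRG1+CD127- and KLRG1-CD127+. Thymocytes were DP cells (CD4+ CD8+) of male mice aged 6 weeks, sorted as CD69- or CD69+, and C57BL/6J cells of embryonic day 17 (e17), whose age label nevertheless reads 5 weeks: CD69- DP cells, Vg2+ gamma-delta cells, and cells titled Vg4+ that were sorted by the exclusion of other Vg chains. Thymic epithelium of C57BL/6 mice was titled MEC (medullary) or CEC (cortical), hi or lo, at 5 and 8 weeks, all with the same marker text, and a further medullary series from mice of mixed sex aged 5 weeks was sorted as CD45- Ly51- MHCIIhi, GFP+ or GFP-. The labels name neither what drives GFP nor the gene absent in the KO. Monocytes, lung and liver macrophages and mast cells came from male mice aged 6 weeks on a C57BL/6 background, and granulocytes from males aged 6 or 7 weeks or 43 to 50 days. Lymph node stroma came from mice aged 6 weeks, 3 of its 7 groups 6 days after CFA, and the B1a array from a mouse aged 9 weeks. The title of another stroma group holds the label Cad11.WT. Fat cells came from males aged 45 to 52 days, with a single age for each replicate number. Lung macrophages were MertK+ CD64+, either CD11c- CD11b+ or, if titled alveolar, CD11c+ CD11b-, and monocytes Ly6C+ MHCII+. Liver macrophages were sorted by Mertk, CD64 and the amount of F4/80. Fat dendritic cells were MHCIIhi CD11c+ with CD64 and Mertk excluded, while fat macrophages carried both. Peritoneal macrophages labelled Gata6ko and their controls, males aged 9 weeks, shared a mixed genetic background. Nothing in the labels says which arrays came from separate animals, so p-values measure the spread between arrays.

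Values are linear intensities made with RMA, and a level is the mean over the arrays of a group. Array medians lay between 112 and 147, and arrays of a group correlated with r between 0.922 and 0.997. As a mark of unspecific signal, 95% of the values of 1035 olfactory receptor probe sets lay below 91.8. Probe sets differ in their own floor, so levels are compared between groups of a gene and not between genes. Where the lower level of a comparison lies under that mark, the printed log2 difference is the one between the signals and no fold is given. Most labelled cell types carried their markers. Group means of Cd3e, a chain of the T cell receptor complex, were 4958 to 10022 in the 19 groups of peripheral T cells and 133 to 185 in the 5 of monocytes. Csf1r, the receptor of macrophage growth factor, measured 3457 to 4523 in monocytes, S100a8 11634 in neutrophils, Cpa3 10799 to 12829.9 in mast cells and Epcam 1278 to 2732 in thymic epithelium. Eosinophils had Siglecf at 1463 to 2026 and Ccr3 at 7452 to 8141, but little of Epx (98.7 to 129) and Prg2 (147 to 222), which reached 318 and 360.5 in an epithelial group. CD11b+ dendritic cells of fat were low in dendritic cell markers other than Itgax, with Flt3 at 239.9, Zbtb46 at 116 and Xcr1 at 81.8. The single B cell array is titled B1a although its marker field lists CD4, CD8 and CD69. It measured 3625 for Cd79a, a B cell receptor chain, and 156 for Cd3e. 1 epithelial group did not stand clear of T cells: in 8-week CEChi arrays all 5 T cell markers were above the background mark, with a summed level of 4073 to 4634, against 441 to 456 in 8-week MEClo arrays.

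The groups with high levels differed between receptors. By definition only a minority of groups can lie above 4 times their median, for any gene. A level above 4 times the median of its 65 groups was reached in 8 groups for Cxcr3, 9 for Cxcr5, 11 for Cx3cr1, 12 for Cxcr4, 14 for Ccr4, 15 for Cxcr6, 16 for Ccr9, 20 for Ccr2 and 25 for Ccr7. In most places the arrays of a group overlapped with those of the next group in the order of levels. This held for Cx3cr1 in 60 and for Ccr4 in 48 of 64 such steps. The other steps were set apart by their arrays, and not all of them are named here.

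Ccr7, the receptor for the lymph node chemokines Ccl19 and Ccl21, was highest in CD4 and CD8 T cells after 1 h of stimulation, at 7980.1 ± 267 (SD, n = 2) and 7604 ± 485 (SD, n = 2), whose arrays overlapped and lay above those of the next group. Its median group mean was 270.1 and its lowest 128, in mast cells of digested peritoneal tissue. Cxcr5, the receptor for the follicle chemokine Cxcl13, was highest on the single B1a array (866), followed by Vg4+ CD24lo gamma-delta thymocytes at 596 ± 70.6 (SD, n = 2) and, clear of these, by CD4 effectors at 394 ± 177 (SD, n = 2). The median was 42.1.

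Ccr4, the receptor for Ccl17 and Ccl22, had its highest level in DP CD69+ thymocytes, 4489 ± 96.2 (SD, n = 3), with arrays clear of every other group. Medullary epithelium came next: 2297 ± 303 (SD, n = 3) in GFP+ cells and 2261 ± 127 (SD, n = 2) in 8-week MEChi cells, which overlapped. The median was 87.1. Ccr9, the receptor for Ccl25, was highest in DP CD69+ thymocytes as well, 10300.4 ± 119.7 (SD, n = 3), and all 6 thymocyte groups lay above 5580.2. Outside the thymus the highest was the CD8 control from lymph node at 2931 ± 529 (SD, n = 2), against a median of 71.4. The 8-week CEChi epithelium, with the T cell markers given above, measured 1123 and 738 on its arrays; the part of those cells in the Ccr9 level was not tested.

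Cxcr3, the receptor for the interferon-induced chemokines Cxcl9, Cxcl10 and Cxcl11, was highest in CD4 memory cells at 3777 ± 163 (SD, n = 2) and effectors at 3767 ± 84.4 (SD, n = 2), which overlapped and lay above all others. The only group among the highest 6 that was not of T cells was CD11b- dendritic cells of fat, 1545 ± 381 (SD, n = 2). Cxcr6, the receptor for Cxcl16, was highest in CD4 effectors at 3245 ± 226 (SD, n = 2), clear of Vg4+ CD24lo thymocytes at 2568 ± 380.1 (SD, n = 2) below them. Its 9 highest groups were all T cells or thymocytes. Cx3cr1, the receptor for fractalkine (Cx3cl1), was highest in KLRG1+CD127- CD8 effectors, 2363 ± 187 (SD, n = 2). These, Tbet+ CD8 effectors, all 5 monocyte groups and CD11b+ lung macrophages made up the 8 highest, a run of overlapping groups down to 1695 that was clear of the ninth, F4/80int liver macrophages at 705 ± 169 (SD, n = 3).

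Ccr2, the receptor for Ccl2, Ccl7 and Ccl12, was highest in blood monocytes titled 6+2-, at 4790.4 ± 225 (SD, n = 2). Other monocytes and both fat dendritic cell groups followed in an overlapping run down to 3478, and the highest group of another kind was Vg2+ gamma-delta thymocytes at 2039 ± 217 (SD, n = 3). The median was 47.9. Cxcr4, the receptor for Cxcl12, had a median of 395 and was above the background mark in all 65 groups, as were Ccr7 and Cx3cr1. The single basophil array was highest at 5054, and blood neutrophils followed at 4335 ± 123 (SD, n = 4), clear of all groups below. In the 11 groups of lymph node stroma and mast cells, no level of Ccr2, Ccr4, Ccr9, Cxcr5 or Cxcr6 passed the background mark.

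**Figure D1:**
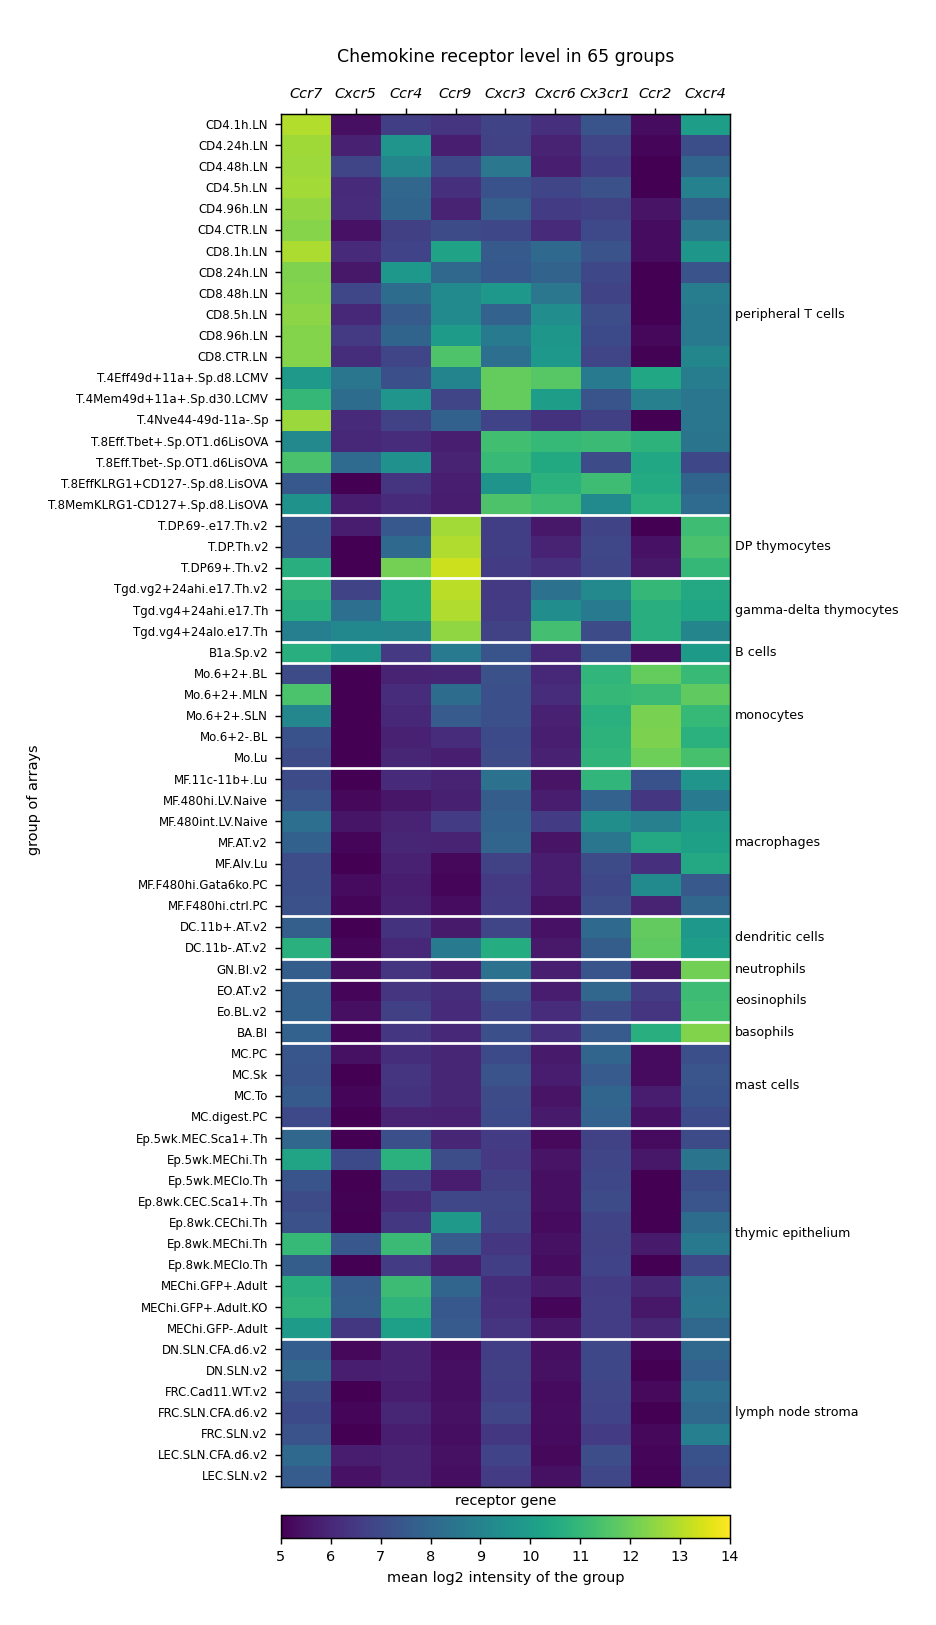
Mean log2 intensity of the 9 receptor genes (columns) in the 65 groups (rows, titles as labelled, ordered by cell class), on one colour scale. Bright cells mark Ccr7 in peripheral T cells, Ccr9 in thymocytes, Ccr2 and Cx3cr1 in monocytes, and Ccr4 in DP CD69+ thymocytes; the lymph node stroma and mast cell rows are dark for Ccr2, Ccr4, Ccr9, Cxcr5 and Cxcr6. Colours compare groups within a column, since probe sets differ in floor.

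The 2 highest correlations between receptors over the 65 group means were Ccr2 with Cx3cr1 (r = 0.75) and Cxcr3 with Cxcr6 (r = 0.71). They are descriptions only, over 65 groups that share arrays of one platform and include related cell states. Among 14561 genes, those whose group means ran most like a receptor's were the following. For Ccr2 they were S100a4 (r = 0.85), Cx3cr1 (r = 0.75) and Arhgap26 (r = 0.73). For Cx3cr1 they were Ms4a4a (r = 0.76), Ccr2 (r = 0.75) and Clec4a4 (r = 0.74). For Cxcr6 they were Ctsw (r = 0.90), Cd160 (r = 0.88) and Nkg7 (r = 0.87), 3 genes known from killer lymphocytes. Those of Cxcr3 were Samd3 (r = 0.81), Heatr9 (r = 0.80) and Ifng (r = 0.79), the last of them interferon gamma. Those of Cxcr5 were Pou2af1 (r = 0.70), Niban3 (r = 0.67) and Ccr6 (r = 0.66), among them the B cell coactivator Pou2af1. Those of Ccr7 were Gtpbp1 (r = 0.87), Pacsin1 (r = 0.85) and Rab3ip (r = 0.83). Ccr4 ran most like Hook1 (r = 0.78), Bdh1 (r = 0.78) and Eif2b5 (r = 0.77), and Ccr9 most like N4bp2 (r = 0.80), Ilvbl (r = 0.79) and Mtf2 (r = 0.78). Those of Cxcr4 were Arid3a (r = 0.71), Cyp4f18 (r = 0.70) and Zfp263 (r = 0.67).

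In naive T cells cultured with beads against CD3 and CD28, the receptors differed from controls at different times. No unstimulated group was labelled with a time, so stimulation and time in culture cannot be told apart. Ccr7 and Cxcr4 were higher after 1 h in both lineages, Ccr4 was higher from 5 to 48 h and peaked at 24 h, Cxcr4 was lower at 24 h, and Cxcr3 was higher at 48 h. Ccr9 and Cxcr6, which CD8 but not CD4 control cells carried at high level, fell in CD8 cells. Of 8 receptors tested (Ccr2 was below the filter on dim probe sets), limma called 3 in CD4 cells at 1 h, 4 at 5 h, 4 at 24 h and 5 at 48 h, where 20.1%, 31.2%, 53.4% and 34.5% of all probe sets were called. In CD8 cells it called 5, 4, 5 and 5, where 14.5%, 28.9%, 43.3% and 25.0% were called. Ccr4, Cxcr5 and Cxcr6 lay below that filter in CD4 controls and passed it through brighter groups, so these counts are descriptions. A call is an adjusted p under 0.05 and a difference is given on the log2 scale ± its SE. The 4 comparisons of a lineage share the same 2 control arrays. In sorted cells measured in bulk, more cells with a transcript and more transcript per cell cannot be told apart.

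Ccr4, low in naive T cells, had the largest rise of the 8 receptors. CD4 controls measured 110.3 and 97.1, and CD4 arrays 110.0 and 95.1 at 1 h, 233 and 271 at 5 h, 736 and 949 at 24 h and 571 and 564 at 48 h. From 5 h on both arrays lay above both controls. The differences were 1.28 ± 0.17, adjusted p = 3.1e-05 at 5 h, 3.01 ± 0.17, adjusted p = 1.6e-09 at 24 h (8.08-fold) and 2.45 ± 0.17, adjusted p = 2.2e-08 at 48 h. CD8 controls measured 116 and 117 for Ccr4 and the stimulated CD8 arrays 164 and 212 at 5 h, 793 and 992 at 24 h and 257 and 329 at 48 h. Here too the stimulated arrays were clear of the controls. The rise was 2.93 ± 0.17, adjusted p = 2.8e-09 at 24 h and 1.32 ± 0.17, adjusted p = 3.0e-05 at 48 h; at 5 h it was 0.68 ± 0.17, adjusted p = 0.0069, with an adjusted p = 0.10 without replicate 2 of the 5 h arrays. On the single arrays at 96 h, Ccr4 measured 240.0 in CD4 and 241 in CD8 cells. The test of the lineage difference in the 48 h response of Ccr4 gave -1.14 ± 0.24, adjusted p = 0.052, and that at 24 h -0.09 ± 0.24, adjusted p = 0.92.

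Cxcr4 went up and then down. Its CD4 arrays measured 323 and 456 in controls, 990.3 and 1089 at 1 h, 127 and 164 at 24 h and 243 and 251 at 48 h. Both 1 h arrays lay above and both 24 h arrays below the controls. The differences were 1.44 ± 0.17, adjusted p = 3.5e-05 at 1 h and -1.41 ± 0.17, adjusted p = 4.7e-06 at 24 h. CD8 arrays measured 518 and 618 in controls, 809 and 912 at 1 h and 157 and 159.6 at 24 h for Cxcr4, a fall at 24 h of 1.84 ± 0.17, adjusted p = 3.7e-07. The smaller CD8 changes of Cxcr4, 0.60 ± 0.17, adjusted p = 0.026 at 1 h and -0.50 ± 0.17, adjusted p = 0.035 at 5 h, missed the threshold without single arrays (adjusted p up to 0.18 without control replicate 1 at 1 h, and 0.24 without control replicate 2 at 5 h). The same holds for the CD4 fall at 48 h, -0.63 ± 0.17, adjusted p = 0.0094, where leaving out control replicate 2 gave adjusted p = 0.12.

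Ccr7 was high at every time, with its peak at 1 h. Control arrays measured 5424 and 5028 in CD4 and 5214 and 5114 in CD8 cells, and arrays at 1 h 8169 and 7792 and 7947 and 7261. The 1 h arrays lay above all controls, by 0.61 ± 0.11, adjusted p = 0.0015 in CD4 and 0.56 ± 0.11, adjusted p = 0.0038 in CD8 cells. The CD8 rise of Ccr7 at 1 h missed the threshold without replicate 1 of the 1 h arrays (adjusted p = 0.053), and both 1 h rises did so when all arrays of the series shared an estimate of the spread (adjusted p = 0.23 and 0.39). Smaller CD4 rises were called at 5 h (0.40 ± 0.11), 24 h (0.38 ± 0.11) and 48 h (0.32 ± 0.11); each lost its call without control replicate 2, with adjusted p of 0.084, 0.068 and 0.16.

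Ccr9 and Cxcr6 separated the lineages in the control arrays. CD8 controls measured 2556 and 3305 for Ccr9 against 129.7 and 144 in CD4 controls, and 813 and 963 for Cxcr6 against 71.1 and 65.1. No arrays overlapped, and the differences were 4.41 ± 0.23, adjusted p = 3.9e-09 for Ccr9 (21.3-fold) and 3.70 ± 0.16, adjusted p = 3.9e-10 for Cxcr6. Cxcr3 was higher in CD8 controls too, 308 and 312 against 127 and 123 (1.31 ± 0.14, adjusted p = 2.2e-05). These 3 of 8 were called between the controls, where 3.09% of all probe sets were. Cxcr6 lay below the filter on dim probe sets in CD4 controls and passed it through brighter groups, so the count is a description. In CD8 cells Ccr9 then measured 981 and 1416 at 1 h, 508 and 752 at 5 h, 209.8 and 323 at 24 h, 593 and 662 at 48 h and 985 on the 96 h array. It was below the controls at every time, most at 24 h, with a difference of -3.48 ± 0.23, adjusted p = 8.8e-09 (11.2-fold). Cxcr6 in CD8 cells measured 241 and 302 at 1 h, 693 and 677 at 5 h, 219.8 and 252 at 24 h, 451 and 317 at 48 h and 865 at 96 h. It fell at 1 h (-1.72 ± 0.16, adjusted p = 3.3e-06), 24 h (-1.91 ± 0.16, adjusted p = 1.1e-07) and 48 h (-1.23 ± 0.16, adjusted p = 2.6e-05), while the 5 h difference, -0.37 ± 0.16, adjusted p = 0.099, was not called.

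The log2 changes of Ccr9 and Cxcr6 were also set against each other between the lineages, from control levels that were low in CD4 cells: Cxcr6 started under the background mark there and Ccr9 reached 54.7 at 24 h, so the room to fall was smaller than in CD8 cells. At 24 h the change in CD8 minus that in CD4 cells was -2.16 ± 0.32, adjusted p = 0.0031 for Ccr9 and -1.73 ± 0.22, adjusted p = 8.3e-04 for Cxcr6, 2 calls among 8 receptors where 0.659% of all probe sets were called. At 48 h the same difference was -2.06 ± 0.32, adjusted p = 0.0049 for Ccr9 and -0.89 ± 0.22, adjusted p = 0.13 for Cxcr6, with 1 receptor called and 0.527% of all probe sets. The Ccr9 difference of CD4 cells from their controls was -1.32 ± 0.23, adjusted p = 1.5e-04 at 24 h and -0.90 ± 0.23, adjusted p = 0.0064 at 5 h, and that at 1 h (-0.74 ± 0.23, adjusted p = 0.032) rested on single arrays (adjusted p = 0.23 without replicate 2 of the 1 h arrays). Of the 4 times, Cxcr6 was called in CD4 cells at 5 h, 115 and 123 against 71.1 and 65.1 (0.81 ± 0.16, adjusted p = 9.6e-04).

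Cxcr3 rose late in both lineages. CD4 arrays measured 94.03 and 122 at 24 h and 381 and 377 at 48 h, and CD8 arrays 187 and 173 and 908 and 868. At 48 h all 4 arrays lay above their controls, by 1.60 ± 0.14, adjusted p = 2.7e-07 in CD4 and 1.52 ± 0.14, adjusted p = 6.1e-07 in CD8 cells, and the lineage difference in that response was -0.09 ± 0.20, adjusted p = 0.92. In CD8 cells Cxcr3 had first fallen, by 0.73 ± 0.14, adjusted p = 0.0024 at 1 h and 0.78 ± 0.14, adjusted p = 3.0e-04 at 24 h; its 5 h value, -0.45 ± 0.14, adjusted p = 0.026, lost the call without replicate 2 of the 5 h arrays (adjusted p = 0.23). Cxcr5 was higher at 48 h in CD4 cells, 144 and 94.7 against 42.8 and 44.2 (1.43 ± 0.24, adjusted p = 3.1e-04). The CD8 rise of Cxcr5, 0.75 ± 0.24, adjusted p = 0.035, did not hold without control replicate 1 (adjusted p = 0.24). Cx3cr1 was called at none of the 8 comparisons with control, and its unadjusted p was under 0.05 in 3 of them.

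**Figure D2:**
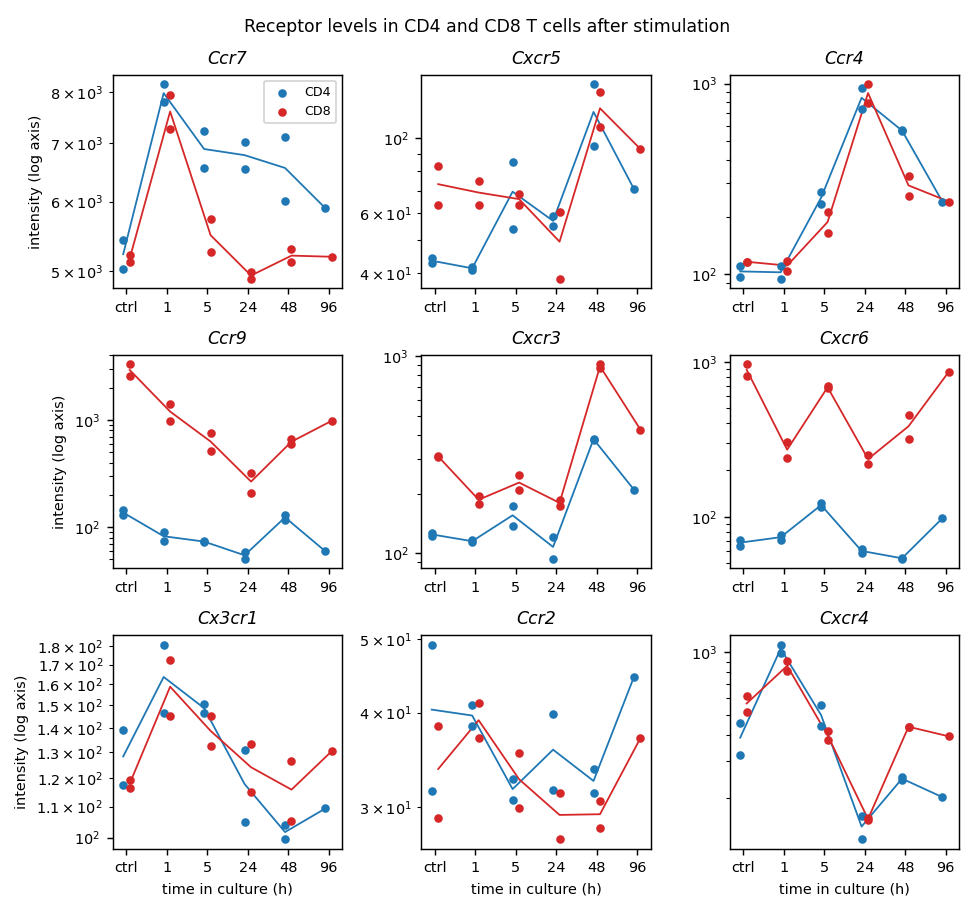
Intensity (log axis) of each receptor in CD4 (blue) and CD8 (red) T cells, as controls (ctrl) and after 1 to 96 h with beads carrying antibodies to CD3 and CD28; points are arrays and lines join group means (2 arrays each, 1 at 96 h). Ccr4 peaks at 24 h in both lineages, and Ccr9 and Cxcr6 start high in CD8 cells alone and fall.

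Around the receptors, Ccr8, a receptor of regulatory and type 2 helper cells, followed a course of its own: in CD4 cells its mean was 2071 against 97.1 at 5 h (4.41 ± 0.25, adjusted p = 5.9e-09) and 554 against 97.1 at 24 h (2.51 ± 0.25, adjusted p = 6.9e-07). S1pr1, through which T cells leave lymph nodes, fell to 339 against 3560.5 in CD4 (-3.39 ± 0.12, adjusted p = 1.9e-11) and 434 against 3292 in CD8 cells (-2.92 ± 0.12, adjusted p = 1.0e-10) at 24 h. Of the signalling genes behind the receptors, at 24 h in CD8 cells 3 of 16 tested were higher and 11 lower, with a median log2 difference of -0.66 beside -0.03 over all probe sets tested, of which 43.3% were called in either direction. In CD4 cells at 24 h 3 of 16 tested were higher and 8 lower, with a median log2 difference of -0.33 beside 0.04 over all probe sets tested, of which 53.4% were called. Rgs16, which shortens Gi signals, rose to 2030.1 in CD8 cells at 5 h (3.79 ± 0.19, adjusted p = 1.3e-09). Rasgrp2, which links receptors to integrin activation, fell to 281 against 1620.1 at 24 h (-2.53 ± 0.14, adjusted p = 1.2e-09), and Rgs2 to 89.2 against 838 in CD4 cells (-3.23 ± 0.29, adjusted p = 1.7e-07).

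CD4 T cells after LCMV had less of the lymph node receptor and more of receptors known from inflamed tissue. Effectors at day 8 after LCMV were higher than naive cells in Ccr2, Cxcr3, Cxcr6, Cxcr5, Cx3cr1 and Ccr9 and lower in Ccr7. Memory cells at day 30 overlapped with effectors in Cxcr3, had less Ccr2, Cxcr6, Cx3cr1 and Ccr9, and more Ccr7 and Ccr4. Of 9 receptors tested, 8 were called in effectors against naive cells, 7 in memory against naive cells and 6 in memory against effectors, where 32.2%, 14.5% and 8.60% of all probe sets were called. The 3 comparisons share their arrays. In naive cells Ccr2, Ccr4, Cxcr5, Cxcr6 and Cx3cr1 lay below the filter on dim probe sets. They passed it only through effector or memory cells, so the counts against naive cells support nothing on their own.

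Cxcr3 measured 111 and 115 in naive cells, 3708 and 3827 in effectors and 3662 and 3892 in memory cells. Naive arrays were clear of the others, which overlapped: effectors exceeded naive cells by 5.06 ± 0.12, adjusted p = 6.1e-08 (33.3-fold), and memory differed from effector by 0.00 ± 0.12, adjusted p = 0.99. Cxcr6 measured 75.4 and 85.9, 3405 and 3085 and 875 and 1264 in the same order. The 3 groups did not overlap, with effectors above naive cells by 5.33 ± 0.18, adjusted p = 2.4e-07 and memory below effectors by 1.62 ± 0.18, adjusted p = 7.4e-04. Ccr2 measured 33.3 and 29.6 in naive cells, 1296 and 1326 in effectors and 385 and 597 in memory cells. Effectors were highest (5.38 ± 0.19, adjusted p = 3.3e-07 against naive cells, which lay under the background mark), and memory cells intermediate (-1.45 ± 0.19, adjusted p = 0.0020 against effectors).

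Ccr7 had the opposite order, with 6350.4 and 6458 in naive cells, 807 and 1104 in effectors and 2217 and 1847 in memory cells. Effectors lay lowest and memory cells between, by -2.76 ± 0.17, adjusted p = 4.6e-06 and -1.66 ± 0.17, adjusted p = 2.4e-04 against naive cells. Ccr4 measured 106 and 109.5, 136 and 158 and 844 and 812. Memory cells stood alone, 2.50 ± 0.13, adjusted p = 4.2e-05 above effectors; the small effector difference, 0.44 ± 0.13, adjusted p = 0.027, was lost without effector replicate 2 (adjusted p = 0.19). Ccr9 was highest in effectors, 562 and 499 against 217 and 227 in naive and 124 and 111 in memory cells (1.26 ± 0.13, adjusted p = 1.1e-04 against naive). Cxcr5 measured 62.2 and 73.8 in naive cells, 269 and 519.5 in effectors and 295 and 281 in memory cells, where the last 2 overlapped and both were higher than naive (2.46 ± 0.26, adjusted p = 1.4e-04 and 2.09 ± 0.26, adjusted p = 7.8e-04). Cx3cr1 rose in effectors, 421 and 391 against 109.6 and 98.3 (1.97 ± 0.20, adjusted p = 9.7e-05), and its memory value, 128 and 199.8, was not called against naive (0.62 ± 0.20, adjusted p = 0.069). Cxcr4 was called in none of the 3 comparisons, at unadjusted p of 0.11, 0.86 and 0.083. Of the other receptors, Ccr6, known from interleukin-17-producing T cells, was higher in effectors, 144 against 57.8 (1.32 ± 0.19, adjusted p = 9.9e-04). Cxcl10, a ligand of Cxcr3, was the only ligand called of those tested, 708 against 125 in effectors against naive cells (2.50 ± 0.12, adjusted p = 1.4e-06).

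CD8 effectors labelled Tbet- had less Cx3cr1 and more Ccr4, Ccr7 and Cxcr5 than those labelled Tbet+. Tbx21, the gene of the transcription factor T-bet, measured 286, 283 and 308 on Tbet- and 3313, 2889 and 3326 on Tbet+ arrays, and so matched the labels. T-bet drives the killer and type 1 program of lymphocytes. The CD45 allele differed together with the Tbet label, and the effects of both cannot be told apart. Of 8 receptors tested, 6 were called, where 9.68% of all probe sets were. Ccr4 and Cxcr5 passed the filter on dim probe sets only through Tbet- cells and had to differ, so the count is a description. Cx3cr1 measured 129, 125 and 144 on Tbet- and 2639, 1927 and 2166 on Tbet+ arrays, without overlap and 16.8-fold apart (-4.07 ± 0.14, adjusted p = 5.9e-08). The Tbet- level was near the median of all groups, 139. Ccr4 measured 759.9, 780.0 and 723 against 64.99, 74.3 and 73.9, again without overlap (3.41 ± 0.11, adjusted p = 4.6e-08). Ccr7 measured 3093, 2506 and 2658 against 546, 703 and 578 (2.18 ± 0.13, adjusted p = 5.7e-06), and Cxcr5 273, 345 and 244 against 55.9, 88.6 and 55.6 (2.13 ± 0.20, adjusted p = 8.7e-05). All 3 were higher on every Tbet- array. Cxcr4 was lower on every Tbet- array, 117, 132 and 124 against 298, 393 and 375 (-1.50 ± 0.13, adjusted p = 5.2e-05). Cxcr3, which T-bet is known to induce, overlapped between the groups, 2292, 2074 and 2257 against 1953, 2698 and 2863 (-0.16 ± 0.15, adjusted p = 0.58), and so did Ccr2 (-0.44 ± 0.20, adjusted p = 0.22). The Cxcr6 difference, -0.57 ± 0.11, adjusted p = 0.0092, missed the threshold without Tbet- replicate 1 (adjusted p = 0.060). Klrb1c, an NK cell marker, moved with Cx3cr1, with means of 59.8 against 693 (-3.47 ± 0.25, adjusted p = 1.8e-05), while Ncr1, the other, was below the filter on dim probe sets. The summed NK level was 86.00 to 95.5 on Tbet- and 451 to 962 on Tbet+ arrays, and Itgax, on the list of dendritic cell markers, was lower as well, 873 against 2806. Their part in the result was not tested.

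KLRG1+CD127- cells, the short-lived effectors, had more Cx3cr1 and less Ccr7 and Cxcr3 than KLRG1-CD127+ cells. Klrg1 (3832 and 4041 against 136, 150.0 and 161) and Il7r, the gene of CD127 (240.2 and 324 against 4942, 5288 and 4981), followed the sort. Cx3cr1 measured 2231 and 2495 on KLRG1+ and 676, 519 and 742 on CD127+ arrays (1.89 ± 0.22, adjusted p = 0.0098). Ccr7 measured 191 and 167 against 697, 789.7 and 844 (-2.12 ± 0.20, adjusted p = 0.0043), and Cxcr3 748 and 873 against 2718, 3072 and 2902 (-1.84 ± 0.20, adjusted p = 0.0071). No arrays overlapped for these 3. They were 3 calls of 6 tested, where 0.382% of all probe sets were called. Without KLRG1+ replicate 2, 0 were called, with adjusted p of 0.051 for Ccr7, 0.11 for Cxcr3 and 0.11 for Cx3cr1, and without CD127+ replicate 2, 1 was. Lyz2, a macrophage and neutrophil gene, measured 4554, 181 and 126 on the CD127+ and 75.7 and 169.8 on the KLRG1+ arrays, and its part in the result was not tested. Ccr2 (1555 and 1326 against 1344, 2300.2 and 1587) and Cxcr4 overlapped. Cxcr6 measured 1939 and 1489.9 against 2186, 3064 and 2032 and was not called (-0.49 ± 0.24, adjusted p = 0.72).

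**Figure D3:**
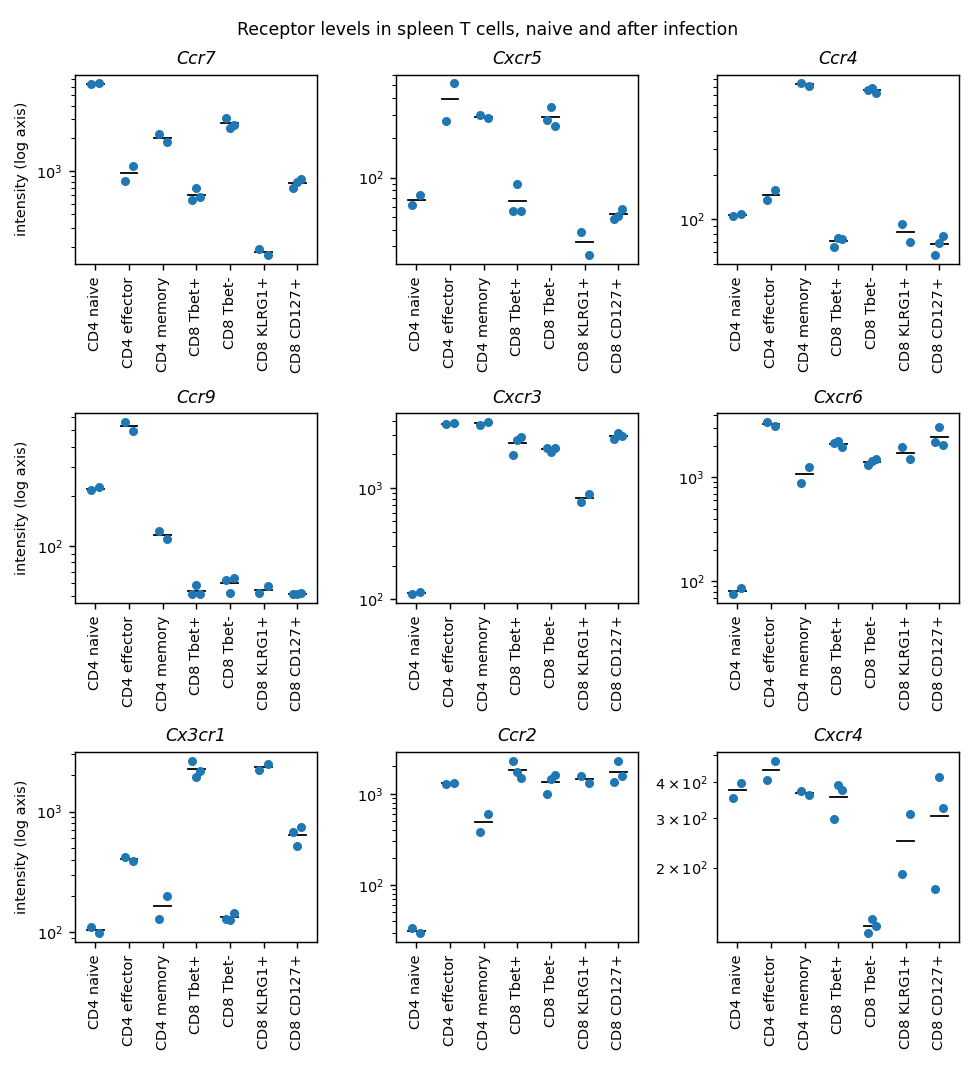
Intensity (log axis) of the 9 receptors in naive, effector (day 8 after LCMV) and memory (day 30) CD4 T cells and in CD8 cells sorted by Tbet label (day 6 after LisOVA) or by KLRG1 and CD127 (day 8); points are arrays and bars group means. Ccr7 is lowest and Cx3cr1 highest in KLRG1+ cells, and Cx3cr1 in Tbet- cells lies between 125 and 144.

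Promoters of 3 receptors are shown for the letters they share, which were found after 4 motifs had been searched. RefSeq (GRCm38.p6) listed a window from 250 bases before to 50 after the transcription start for 7 of the 9 receptors. Of these 5 lie on chromosome 9, with the starts of Ccr9 and Cxcr6 39.3 kb apart on the same strand and that of Ccr2 a further 296 kb along. 4 motifs were searched on both strands, with 0 overlaps between different motifs: TGTGGT (RUNX), GGTGTG (T-box), CAGGTG (E-box) and CCACCC (Krueppel-like factors). TGTGGT or its reverse complement ACCACA was in 3 of 7 windows, those of Cxcr3, Cxcr6 and Cx3cr1, and in 16.8% of all 32851 RefSeq windows. Each of these 3 receptors was high in some effector T cells, but Cx3cr1 was low in Tbet- CD8 effectors. Ccr2, whose window held no such match, was high in effector T cells too (1311 in CD4 and 1836 in Tbet+ CD8 effectors). The other motifs were in 1, 3 and 2 of 7, and in 19.0%, 20.2% and 31.5% of all. A match describes the letters in a window and is neither a site nor a cause. The windows of Cxcr3 (chrX:101734098-101734397, minus strand), Cxcr6 (chr9:123806227-123806526, plus strand) and Cx3cr1 (chr9:120068247-120068546, minus strand) are given 5′ to 3′ with ACCACA, the reverse complement of TGTGGT, in capitals, beside that of Cxcr4 (chr1:128592250-128592549, minus strand), which holds 20 CpG against 1 to 5 in the other 6 and a median of 7 over all windows.
Cxcr3: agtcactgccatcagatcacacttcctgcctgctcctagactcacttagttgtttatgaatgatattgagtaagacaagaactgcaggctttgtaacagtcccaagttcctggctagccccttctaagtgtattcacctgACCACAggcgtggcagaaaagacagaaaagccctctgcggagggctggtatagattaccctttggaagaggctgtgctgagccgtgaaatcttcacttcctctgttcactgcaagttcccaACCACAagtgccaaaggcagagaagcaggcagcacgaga
Cxcr6: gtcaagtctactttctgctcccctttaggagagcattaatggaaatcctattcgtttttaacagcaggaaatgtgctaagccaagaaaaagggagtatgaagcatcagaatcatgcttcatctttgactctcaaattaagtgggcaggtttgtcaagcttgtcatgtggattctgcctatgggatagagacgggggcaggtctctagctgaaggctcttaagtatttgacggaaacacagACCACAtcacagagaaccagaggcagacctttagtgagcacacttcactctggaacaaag
Cx3cr1: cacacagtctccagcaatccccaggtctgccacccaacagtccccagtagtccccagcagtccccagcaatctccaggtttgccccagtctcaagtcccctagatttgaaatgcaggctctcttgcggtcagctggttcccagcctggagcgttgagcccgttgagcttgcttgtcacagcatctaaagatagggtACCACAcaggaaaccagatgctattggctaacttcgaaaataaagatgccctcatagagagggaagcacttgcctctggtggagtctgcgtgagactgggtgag
Cxcr4: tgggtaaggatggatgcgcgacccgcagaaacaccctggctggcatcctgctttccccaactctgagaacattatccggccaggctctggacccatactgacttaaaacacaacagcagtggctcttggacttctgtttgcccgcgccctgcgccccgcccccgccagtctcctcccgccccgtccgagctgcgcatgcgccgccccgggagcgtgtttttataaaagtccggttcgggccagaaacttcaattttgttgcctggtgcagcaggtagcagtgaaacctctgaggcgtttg

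In the thymus, adult DP cells with CD69, which appears after a T cell receptor signal, were higher than CD69- DP cells in Ccr4 and Ccr7, receptors that draw selected thymocytes to the medulla. Cd69 itself measured 3320.3, 3376 and 3586 in CD69+ and 278, 296 and 278 in CD69- cells. Ccr4 measured 261, 271 and 288 in CD69- and 4383, 4570.4 and 4513 in CD69+ cells, 16.4-fold apart (4.04 ± 0.09, adjusted p = 1.4e-16). Ccr7 measured 178, 161 and 187 and 1435, 1574 and 1969.8 (3.23 ± 0.13, adjusted p = 7.6e-14). Neither pair overlapped. Ccr9 was slightly higher, 10232, 10439 and 10230.1 against 8061, 8090.2 and 7351 (0.40 ± 0.09, adjusted p = 0.0012), and Cxcr4, which keeps early thymocytes in the cortex, lower, 2318, 2114 and 1782 against 2863, 2619 and 2639 (-0.39 ± 0.10, adjusted p = 0.0028); both calls were lost in the fit over all arrays of the series (adjusted p = 0.29 and 0.47). 4 of 8 tested receptors were called, and 40.3% of all probe sets. Of the other receptors Ccr8 (135 against 36.00, 1.89 ± 0.14, adjusted p = 1.8e-09) and S1pr1 (135 against 59.5, 1.18 ± 0.14, adjusted p = 9.2e-07) rose. Of the signalling genes 10 of 17 tested were higher and 1 lower, with a median log2 difference of 0.34 beside 0.02 over all probe sets tested.

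Embryonic DP cells were not called different from adult CD69- DP cells in the receptors with high levels. In these, Ccr9 and Cxcr4, every embryonic array nevertheless lay below every adult array. Ccr9 measured 6686, 6597 and 7299.9 against 8061, 8090.2 and 7351 in adult cells (-0.19 ± 0.09, adjusted p = 0.098) and Cxcr4 2378, 2345 and 2388 against 2863, 2619 and 2639 (-0.19 ± 0.10, adjusted p = 0.13). Ccr4 was lower, 175, 173 and 183 against 261, 271 and 288 (-0.63 ± 0.09, adjusted p = 3.2e-05). Ccr2 and Cxcr5 were called too, at levels under the background mark in both groups (32.3 and 51.8 in embryonic cells) and not with 32 added to the intensity. These made 3 of 8, with 35.9% of all probe sets called.

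Gamma-delta thymocytes of e17, T cells with the alternative receptor, carried Ccr2, Ccr4, Ccr7, Cxcr6 and Cx3cr1 above DP cells of that age. All 8 receptors tested were called between Vg2+ CD24hi and e17 DP cells, where 49.0% of all probe sets were called, 7 of them higher. Ccr2, Cxcr5 and Cxcr6 passed the filter on dim probe sets only through gamma-delta groups, so that count supports nothing on its own. Ccr2 measured 2264, 1831 and 2023 on Vg2+ arrays against 32.3, 33.7 and 30.97 (5.98 ± 0.11, adjusted p = 8.2e-19). Ccr7 measured 2069, 1812 and 1885 against 195, 176 and 162 (3.44 ± 0.13, adjusted p = 3.3e-14), and Cx3cr1 625, 609.6 and 557 against 121, 111 and 114 (2.37 ± 0.12, adjusted p = 5.2e-12). Cxcr4 was the lower one, 1403, 1454 and 1306 against 2378, 2345 and 2388 (-0.77 ± 0.10, adjusted p = 1.7e-06). Ccr9 was high on both sides (0.33 ± 0.09, adjusted p = 0.0039), a difference lost in the fit over all arrays (adjusted p = 0.34). Cpa3, a mast cell and basophil marker, was higher in Vg2+ cells, 6029 against 23.2; among the 4 mast cell markers 2 passed the filter and both were higher, with a summed level of 6069.8 to 7068 against 261 to 301. Its part in the result was not tested.

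Thymocytes lose CD24 as they mature. Vg4+ CD24lo cells were higher in Cxcr6 and Cxcr5 than CD24hi cells and lower in Ccr7, Cx3cr1, Ccr4 and Cxcr4. Cxcr6 measured 692, 477 and 961 on CD24hi and 2299 and 2837 on CD24lo arrays (1.90 ± 0.19, adjusted p = 3.5e-07). Ccr7 measured 1702, 1335 and 1616 and 420.5 and 528 (-1.71 ± 0.14, adjusted p = 1.9e-08), and Cx3cr1 351, 412 and 477 and 126 and 143 (-1.62 ± 0.14, adjusted p = 3.2e-08). Ccr4 measured 1558, 1319 and 1633 and 595 and 565 (-1.37 ± 0.10, adjusted p = 5.0e-09), Cxcr4 1221, 1365 and 1209.9 and 519 and 579.8 (-1.20 ± 0.11, adjusted p = 7.1e-08). All of these pairs were free of overlap. Ccr2 was not called, 1466, 1434 and 1959 and 1633 and 1615 (0.02 ± 0.12, adjusted p = 0.94). 7 of 8 were called, and 18.8% of all probe sets. Without CD24lo replicate 2, the rise of Cxcr5 (0.93 ± 0.24, adjusted p = 0.010) had adjusted p = 0.11 and the fall of Ccr9 (-0.41 ± 0.10, adjusted p = 0.0055) adjusted p = 0.099. Ccr6 rose alongside, 160.4 against 51.1 (1.66 ± 0.11, adjusted p = 5.8e-10), and Ccr8 fell, 368 against 1806 (-2.30 ± 0.16, adjusted p = 2.0e-09). Both tested mast cell markers fell with them, to a summed level of 526 to 578 from 4538 to 4965, and their part was not tested.

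Between the CD24hi subsets, Vg2+ cells had less Cxcr5, 111, 105 and 133 against 377, 185 and 439.7 in Vg4+ cells (-1.44 ± 0.22, adjusted p = 0.0015), and less Cxcr6, 360.3, 303 and 317 against 692, 477 and 961 (-1.06 ± 0.17, adjusted p = 0.0026). Neither pair overlapped, although the Vg4+ arrays were spread widely. Cx3cr1 was called as well (0.54 ± 0.12, adjusted p = 0.043), but not with the replicate block (adjusted p = 0.053) and not without, among others, Vg4+ replicate 1 (adjusted p = 0.21). That made 3 of 8 where 0.774% of all probe sets were called.

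**Figure D4:**
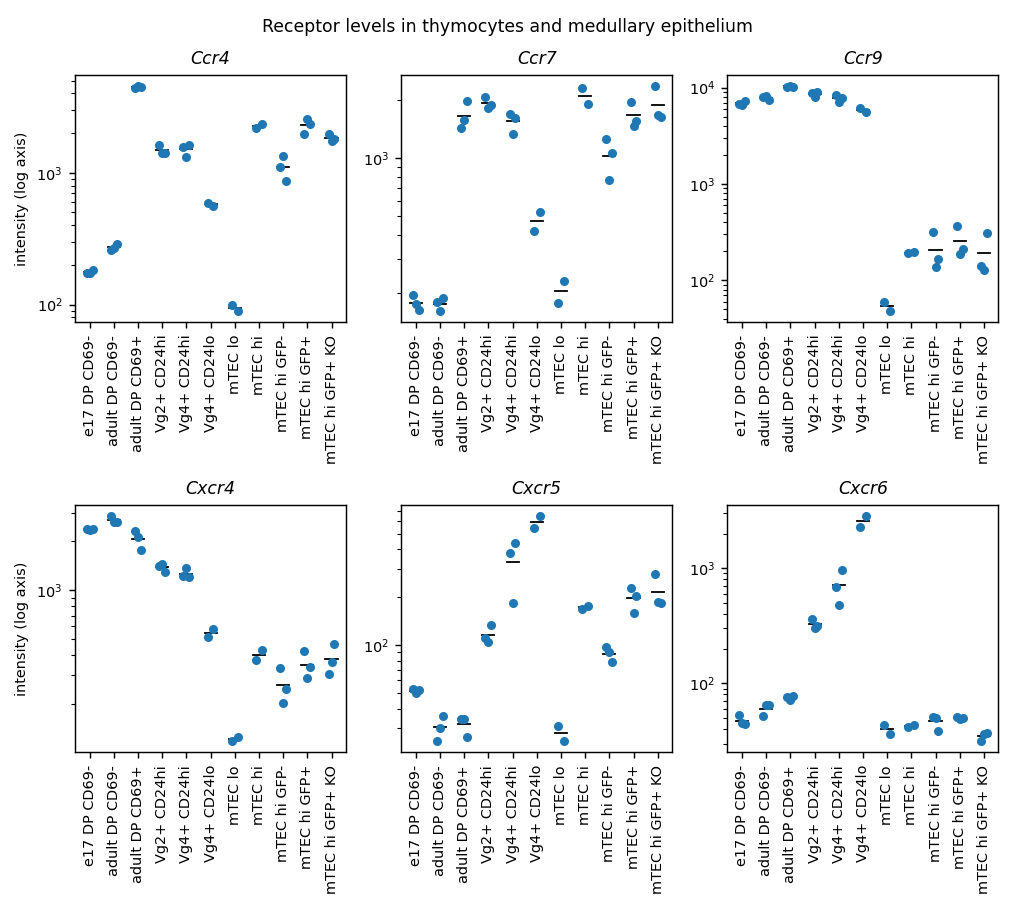
Intensity (log axis) of 6 receptors in DP thymocytes, gamma-delta thymocytes of embryonic day 17 (Vg2+, Vg4+) and medullary thymic epithelium (mTEC, lo and hi as titled); points are arrays and bars group means. Ccr4 and Ccr7 are high in CD69+ DP cells and in hi epithelium, and low in CD69- DP cells and lo epithelium.

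Arrays of medullary epithelium carried signal of receptors usually described in leukocytes. The 3 epithelial comparisons were added after the receptor levels had been seen. 8-week MEChi arrays measured 2171 and 2351 for Ccr4 against 98.9 and 89.7 in MEClo (24.0-fold, 4.58 ± 0.12, adjusted p = 2.6e-07), 2301 and 1907 against 178 and 229.9 for Ccr7 (3.37 ± 0.19, adjusted p = 2.2e-06) and 168 and 177 against 31.03 and 24.96 for Cxcr5 (2.63 ± 0.15, adjusted p = 2.0e-06). No arrays overlapped. With Cxcr4 (1.71 ± 0.12, adjusted p = 9.2e-06) and Ccr9 (1.86 ± 0.20, adjusted p = 8.8e-05), all 5 tested receptors were called, where 46.1% of all probe sets were. Ccr4 and Cxcr5 passed the filter through MEChi cells alone and had to differ, so the count is a description. The 5-week MEChi array measured 1729 for Ccr4 and the 5-week MEClo arrays 112 and 92.01. Leukocyte markers were also higher in MEChi cells. The summed level of 5 T cell markers was 756 to 811 in MEChi and 441 to 456 in MEClo arrays, with 4 of 5 called higher and Cd28 lower. That of 4 dendritic cell markers was 438 to 449 and 261 to 281, with 1 of 1 tested higher, and that of 4 macrophage markers was 4647 to 4717 and 603 to 627, with Lyz2 the only one tested (4439.5 against 454). Cd3e measured 198 and 111. No marker was at 0, and their part in the receptor levels was not tested.

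In MHCIIhi medullary cells sorted by GFP, Ccr4, Cxcr5 and Ccr7 were higher in GFP+ cells. Ccr4 measured 1970.3, 2569 and 2353 on GFP+ and 1103, 1329.9 and 862 on GFP- arrays (1.08 ± 0.16, adjusted p = 2.6e-04), Cxcr5 228, 160.2 and 205 and 97.1, 90.02 and 77.9 (1.15 ± 0.18, adjusted p = 4.8e-04), and Ccr7 1964, 1471 and 1566 and 1257, 772 and 1059.8 (0.71 ± 0.20, adjusted p = 0.013). Those were 3 of 5 tested, with 49.4% of all probe sets called. Cxcr5 lay below the filter on dim probe sets in GFP- cells and passed it through brighter groups, so the count is a description. Arrays of equal replicate number deviated together here, and with the number as a block 5 of 5 were called. T cell markers had summed levels of 760.2 to 1396 in GFP+ and 659 to 1260.3 in GFP- cells, with 1 of 5 called. Cd3e was 220.1 in GFP+ and 275 in GFP- cells. KO cells differed from GFP+ cells in chemokine ligands, in a comparison that shares the GFP+ arrays. Ccr4 measured 1955, 1757 and 1801 in KO GFP+ cells and Ccr7 2372, 1669 and 1627. Limma called 0 of 5 receptors against GFP+ cells (0 at an unadjusted p under 0.05), where 19.1% of all probe sets were called. Among the chemokine ligands 0 of 12 tested were higher and 8 lower, with a median log2 difference of -0.63 beside 0.05 over all probe sets tested. Cxcl13, the ligand of Cxcr5, was 487 against 2530.2 (-2.43 ± 0.25, adjusted p = 4.5e-05), and Ccl22, a ligand of Ccr4, 278 against 1307 (-2.22 ± 0.26, adjusted p = 1.2e-04). Both had been higher in MEChi than in MEClo cells, Ccl22 at 2833 against 143 (4.34 ± 0.19, adjusted p = 7.0e-07) and Cxcl13 at 2554 against 159 (3.99 ± 0.19, adjusted p = 8.8e-07).

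Monocytes of blood, lung and lymph node shared high Ccr2 and Cx3cr1, and the tissues differed in Ccr7 and Ccr9. Ccr2 measured 4519, 3349 and 4608 in lung and 4631 and 4949 in blood monocytes titled 6+2- (whose marker field nevertheless lists MHCII+), and Cx3cr1 1792, 1887 and 1979 and 1689 and 1912. The blood arrays lay just above those of lung in Ccr2 and overlapped with them in Cx3cr1. Limma called 0 of 6 receptors between them (2 at an unadjusted p under 0.05) and 7.69% of all probe sets. In skin-draining lymph node (SLN) monocytes Ccr7 measured 643, 903 and 336 against 154, 131 and 122 in lung (2.10 ± 0.26, adjusted p = 6.1e-05) and Ccr9 186, 162 and 235 against 54.7, 55.2 and 50.9 (1.84 ± 0.14, adjusted p = 4.5e-07), without overlap. Those were 2 of 6, with 13.5% of all probe sets called. Ccr9 lay below the filter on dim probe sets in lung and passed it through brighter groups, so the count is a description. The single array of mesenteric node (MLN) monocytes measured 2807 for Ccr7, 293 for Ccr9 and 2236 for Ccr2. Dendritic cell markers summed to 2483 there, 1032 to 2485 in SLN and 1287 to 1751 in lung monocytes, with 1 of 3 tested lower in SLN than in lung and 0 higher. Their part was not tested. The ligands of Cxcr3 moved with the node: Cxcl10 was 9349 against 1147 (3.07 ± 0.24, adjusted p = 5.7e-07) and Cxcl9 4265 against 609 (2.80 ± 0.28, adjusted p = 8.5e-06) in SLN against lung monocytes. Over the ligands 8 of 13 tested were higher and 0 lower, with a median log2 difference of 0.87 beside -0.01 over all probe sets tested.

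Lung macrophages were lower in Ccr2 than lung monocytes, and the CD11b+ kind overlapped with them in Cx3cr1. Ccr2 measured 92.00, 182 and 212 in CD11b+ macrophages against 4519, 3349 and 4608 in lung monocytes (27.0-fold, -4.76 ± 0.23, adjusted p = 3.4e-11). Cx3cr1 overlapped between them, 1722, 2661 and 1609 against 1792, 1887 and 1979 (0.05 ± 0.15, adjusted p = 0.83). Alveolar macrophages had little Cx3cr1, 147, 134 and 126, 14.4-fold below CD11b+ macrophages (-3.85 ± 0.15, adjusted p = 1.9e-12). Cxcr3 was highest in CD11b+ macrophages, 292, 325 and 403 against 95.7, 106 and 117 in alveolar macrophages (-1.67 ± 0.13, adjusted p = 9.2e-09) and 127, 129 and 152 in monocytes (1.32 ± 0.13, adjusted p = 2.4e-07). Cxcr4 was highest in monocytes, 3539.9, 2353 and 2355, then in alveolar, 1356, 1416 and 1359, and CD11b+ macrophages, 898, 711 and 883, and no 2 of these groups overlapped (0.74 ± 0.19, adjusted p = 0.0041 for alveolar against CD11b+). Of 6 tested receptors 5 were called between the macrophages and 3 between CD11b+ macrophages and monocytes, where 54.2% and 49.6% of all probe sets were; the Ccr2 and Ccr9 calls between the macrophages concern levels near or under the background mark. Alveolar macrophages lay below the filter on dim probe sets in Ccr2, Ccr9 and Cxcr3, so the count between the macrophages is a description. CD11b+ macrophages also carried the ligands. Ccl7, a ligand of Ccr2, was 89.9 against 6094 in alveolar against CD11b+ macrophages, and of the ligands 3 of 13 tested were higher and 8 lower, with a median log2 difference of -2.76 beside 0.07 over all probe sets tested. Ccl8 (-7.11 ± 0.13, adjusted p = 1.1e-16) and Cxcl13 (-6.88 ± 0.10, adjusted p = 1.6e-17) differed most. Pf4, a platelet marker, was high in CD11b+ macrophages, 11222 against 53.6 against monocytes. Of 3 platelet markers 2 were higher there, with a summed level of 10957 to 12069.8 against 197 to 212. Of 5 T cell markers Cd4 was the one called, 2141 against 76.9, with Cd3e at 160.0. Their part was not tested.

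In the liver, macrophages with intermediate F4/80 carried more Ccr2 and Cx3cr1 than those with high F4/80. Ccr2 measured 752, 455 and 340.1 in F4/80int and 103, 78.1 and 78.2 in F4/80hi cells (-2.51 ± 0.27, adjusted p = 5.5e-04, F4/80hi minus int). Cx3cr1 measured 899, 620.0 and 595 and 291, 188 and 213 (-1.61 ± 0.21, adjusted p = 0.0013), and Ccr7 315, 283 and 335 and 175, 179 and 150.3 (-0.89 ± 0.12, adjusted p = 0.0014). None of these overlapped, and 3 of 5 tested were called, with 20.2% of all probe sets. Ccr2 lay below the filter on dim probe sets in F4/80hi cells and passed it through F4/80int cells, so the count is a description. Cxcr4 overlapped (1822, 737 and 683 against 1050.0, 264 and 254), each group with its highest array in replicate 1. Markers of several other cell types were higher in F4/80int cells too. All 4 dendritic cell markers were called, with a summed level of 1113 to 2100.3 against 455 to 556, 3 of 4 neutrophil markers (960.4 to 1089.7 against 721 to 789) and both tested endothelial markers (3816 to 5899 against 1791 to 2558). No marker was at 0 and their part was not tested.

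In visceral fat, CD11b- dendritic cells were higher than CD11b+ cells in Cxcr3, Ccr7 and Ccr9, and both had Ccr2. Cxcr3 measured 1276 and 1814 in CD11b- and 121, 110.0 and 119 in CD11b+ cells (13.1-fold, -3.71 ± 0.47, adjusted p = 9.3e-04, CD11b+ minus CD11b-). Ccr9 measured 443 and 403 and 64.3, 41.6 and 47.6 (-3.07 ± 0.21, adjusted p = 2.8e-05). Ccr7 measured 2738 and 1049 and 196, 151 and 315 (-3.01 ± 0.53, adjusted p = 0.0054), with a wide gap between the CD11b- arrays, and missed the threshold without CD11b- replicate 1 (adjusted p = 0.065). Ccr2 overlapped, 3464 and 3493 and 3209, 4274 and 3469 (0.06 ± 0.55, adjusted p = 0.95). The 3 calls were of 6 tested, where 15.7% of all probe sets were called. Ccr9 lay below the filter on dim probe sets in CD11b+ cells and passed it through brighter groups, so the count is a description. Xcr1, the receptor of cross-presenting dendritic cells, separated the same groups, 81.8 against 4306 in CD11b+ against CD11b- cells (-5.76 ± 0.26, adjusted p = 2.7e-06), and Ccr1 went the other way, 1049.7 against 84.3 (3.64 ± 0.27, adjusted p = 4.0e-05). 3 of 4 dendritic cell markers were lower in CD11b+ cells, with a summed level of 2064 to 3119.8 against 9264 to 9809, and 3 of 4 macrophage markers higher, 11048 to 15136 against 6154 to 6317; their part was not tested. Fat macrophages did not differ from CD11b+ dendritic cells at the threshold. Limma called 0 of 6 receptors (2 at an unadjusted p under 0.05), with 15.6% of all probe sets. Replicate 1 of the macrophages, from mice aged 45 days where the CD11b+ dendritic cells were 48 to 52 days old, stood apart: Ccr2 measured 3512, 683 and 1075 on their 3 arrays and Cxcr3 109, 373 and 355, and without replicate 1 2 receptors were called.

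The gene named in the label of the peritoneal macrophages, Gata6, a transcription factor of their resident kind, measured 3047, 2568 and 3119.7 on arrays labelled Gata6ko and 2832, 3221 and 2553 on controls, which overlapped. Where its probes lie relative to the deletion was not tested, so the level does not check the labels. Ccr2 was higher on arrays labelled Gata6ko. It measured 559, 993 and 451 there and 54.02, 62.02 and 60.9 on control arrays, which lay under the background mark and did not overlap with the others (3.42 ± 0.25, adjusted p = 2.3e-04). That was 1 of 4 tested, with 6.69% of all probe sets called. Control arrays lay below the filter on dim probe sets, which Ccr2 passed only through brighter arrays, so the count is a description. Cx3cr1 (122, 158 and 96.6 against 117, 159 and 144), Cxcr4 (144, 246 and 167 against 151, 167 and 607) and Ccr7 were not called. Monocyte and macrophage markers summed to 18353 to 20720.4 and 20269.5 to 22528, with 0 of the tested ones called. Lyve1, on the list of endothelial markers, was higher on arrays labelled Gata6ko, 2360.1 against 189, and Cd28 was the 1 T cell marker called, 295 against 91.8; their part was not tested.

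**Figure D5:**
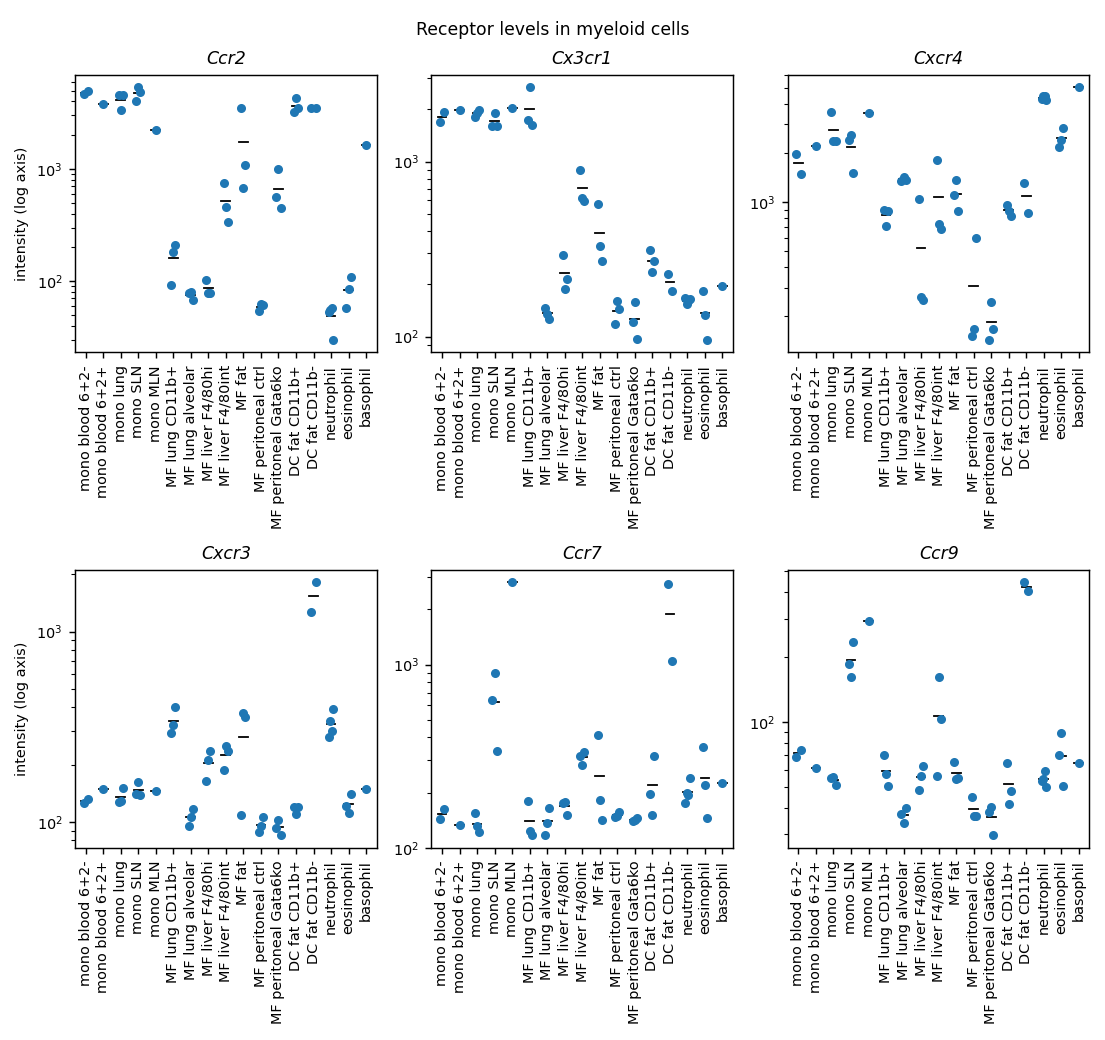
Intensity (log axis) of 6 receptors in monocytes (mono), macrophages (MF), dendritic cells (DC) and granulocytes, by organ; points are arrays and bars group means. Ccr2 and Cx3cr1 are high together in monocytes, CD11b+ lung macrophages are high in Cx3cr1 and fat dendritic cells in Ccr2, and Cxcr4 is highest in the basophil array and the neutrophils.

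Blood neutrophils had the highest Cxcr4 level of all groups with replicates. They measured 4264, 4444, 4432 and 4198 against 1958 and 1493 in blood monocytes (1.34 ± 0.17, adjusted p = 8.6e-05) and 2179, 2407 and 2823 in eosinophils (-0.82 ± 0.15, adjusted p = 0.0014, eosinophils minus neutrophils). Neutrophils were low in the monocyte receptors: Ccr2 measured 52.7, 55.7, 57.04 and 29.9 against 4631 and 4949 (-6.66 ± 0.30, adjusted p = 6.0e-08), and Cx3cr1 167, 153, 159 and 163 against 1689 and 1912 (-3.48 ± 0.22, adjusted p = 7.1e-07). Cxcr3 was above monocytes and eosinophils in neutrophils, 281, 337, 302 and 390.0 against 126 and 132 and 122, 111 and 139.8 (1.33 ± 0.17, adjusted p = 1.2e-04 and -1.39 ± 0.15, adjusted p = 4.6e-05). Limma called 4 of 5 receptors between neutrophils and monocytes and 3 of 5 between eosinophils and neutrophils, where 40.6% and 38.4% of all probe sets were called. The third of these, Ccr2 in eosinophils (0.78 ± 0.26, adjusted p = 0.038), lay near the background mark and missed the threshold without any of 4 single arrays, namely eosinophil replicates 3 and 5 and neutrophil replicates 4 and 7 (adjusted p from 0.059 to 0.13). Ccr2 lay below the filter on dim probe sets in neutrophils and eosinophils and passed it through brighter groups, so both counts are descriptions. The granulocytes' own receptors were outside the 9. Cxcr2, which brings neutrophils to Cxcl1, was 8512 against 30.2 in neutrophils against monocytes (8.12 ± 0.58, adjusted p = 1.7e-06), and Ccr3, the eotaxin receptor, 8141 against 167 in eosinophils against neutrophils (5.72 ± 0.28, adjusted p = 1.1e-07). Eosinophil arrays differed in Cpa3 (1428, 498 and 50.6) and S100a9 (156, 325 and 1507), markers of basophils and neutrophils, whose part was not tested. The single basophil array combined high Cxcr4 with a Ccr2 level of 1639.

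Mast cells of skin and peritoneum did not differ at the threshold in the 4 receptors that passed the filter. Cx3cr1 measured 219, 208 and 151 in skin and 265, 239, 251 and 235 in peritoneal mast cells (-0.38 ± 0.16, adjusted p = 0.10), and Cxcr4 146, 165 and 189 and 161, 109.8, 200.3 and 125 (0.19 ± 0.21, adjusted p = 0.54). Limma called 0 of 4 (1 at an unadjusted p under 0.05), with 31.3% of all probe sets; the tissue label of 2 peritoneal arrays reads blood. Without peritoneal replicate 5, 1 was called. Of the ligands, Ccl7 was 12459 against 873 in skin against peritoneal mast cells (3.86 ± 0.18, adjusted p = 5.1e-08).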

How the data were processed

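RNA of sorted mouse cells was measured on Affymetrix Gene 1.0 ST arrays, which carry no count and no depth, so the number of arrays limits the precision. The authors computed the intensity values that they deposited by RMA in Affymetrix Power Tools, per the submitters' processing notes, which give no version. The column values were linear, and log2 was taken here. Of 24922 probe sets, 21425 carried 1 gene symbol, 1399 several and 2098 none, by the array's GEO annotation. Each gene was read from its 1-symbol probe set with the highest mean over all arrays.

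Arrays were grouped by their titles. Limma 3.58.1 in R 4.3.3 (lmFit and eBayes) was run on log2 intensities in 13 fits of related groups, with no covariate, on probe sets bright enough in at least 1 group, with a group mean at or above the median value of the arrays in that fit. A receptor below this level in 1 arm entered a comparison only through a brighter group of its fit, so counts of calls are descriptions. P-values were adjusted over all probe sets tested in each comparison (Benjamini-Hochberg), and an adjusted p under 0.05 was a call. There were 35 comparisons, with 243 tests of the 9 receptors, and 3 of the comparisons (thymic epithelium) were added after receptor levels had been seen. The receptors, gene lists and markers were chosen with earlier results of these data known. From each list, up to 3 called genes with the largest change were named per comparison. Most alike genes were those with the highest Pearson correlation over group means, without predicted, small RNA, olfactory and antigen receptor genes. Cxcr7, Adrbk1, Grk2 and Rgs10 had no 1-symbol probe set matched and are not analysed here; some other genes of the lists are not reported.

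Alternatives were no filter, a filter at the 75th percentile, quantile normalization, 32 added to the intensity, trend and robust variances, all arrays in 1 fit, the replicate number as a block, the cell separation method as a term for lung and monocyte groups, and leaving out each replicate. Replicate numbers were taken to pair arrays with 3 shared numbers, all deviating together. GFP+ against GFP- epithelium met this, where deviations from the group means correlated at 0.14 to 0.40 for all 3. The stimulation series shares 2 numbers, with correlations up to 0.54, and its pairing was not settled. On simulated data, differences of 1 on the log2 scale were recovered for 88% of 50 changed genes in the CD4 24 h comparison, for 24% in that of KLRG1 and for 94% in CD11b+ lung macrophages against monocytes, with 3, 1 and 14 false calls. No 2 arrays held identical values (0 pairs). Promoter windows came from RefSeq (GRCm38.p6). Python 3.11.15, pandas 2.3.3, numpy 2.4.6 and matplotlib 3.10.9 were used.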

Additional observations from a re-analysis of the deposited data

Results flagged for a closer look

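Ccr2 in blood neutrophils had 1 array apart from the others: it measured 29.9 on replicate 7, against 52.7, 55.7 and 57.04 on the other arrays, all under the background mark of 91.8. The gap was wide for a group of 4 arrays; 18 combinations of gene and group were large enough to be examined in this way, and chance sets such an array apart in about 1 of 20.

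The log2 change of Ccr9 with stimulation differed between the lineages. That in CD8 cells minus that in CD4 cells, tested by limma as an interaction, was -2.16 at 24 h (adjusted p = 0.0031) and -2.06 at 48 h (adjusted p = 0.0049), with all stimulated CD8 arrays below their controls at both times. The same difference for Cxcr6 was -1.73 at 24 h (adjusted p = 8.3e-04). CD4 control arrays of both genes were low, at 129.7 and 144 for Ccr9 and 71.1 and 65.1 for Cxcr6, the latter under the background mark of 91.8, so a fall of the CD8 size was not measurable there.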

How the results depend on the processing

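Of 243 receptor tests 128 were called. Of these 101 kept their direction and their call under every alternative that could be run, 27 lost the call under at least 1, and 0 reversed. The 76 lost values among 1508 came from leaving out 1 array (46 of 635), from all arrays in 1 fit (18 of 128), from no filter (5 of 128), from 32 added to the intensity (3 of 128), from quantile normalization (3 of 126) and from the replicate block (1 of 103). Of the remaining alternatives, trend and robust variances (128 values), the filter at the 75th percentile (117) and the separation method (10) lost 0.

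Counts of called receptors moved by over 1.5 times as follows, and the cause was not tested. With all arrays in 1 fit the counts were 1 for CD4 at 1 h (3 before), 3 for CD4 at 48 h (5) and for CD8 at 1 h (5), 2 for CD8 at 5 h (4), for the lineage difference at 48 h (1), for DP CD69+ cells (4) and for fat macrophages against CD11b+ dendritic cells (0), 6 for liver macrophages (3), 5 for eosinophils against neutrophils (3) and 1 for the epithelial KO (0). Quantile normalization gave 3 for CD4 at 48 h, 2 for the lineage difference at 48 h and 5 for e17 against adult DP cells (3). With 32 added these were 3 for the lineage difference and 1 for e17 DP cells. The filter at the 75th percentile gave 2 for the lineage difference, 3 for alveolar against CD11b+ macrophages (5) and 1 for lymph node against lung monocytes (2). Trend and robust variances gave 2 for the lineage difference, and no filter 1 for the KO.

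With the replicate number as a block, 5 receptors were called in GFP+ against GFP- epithelium (3 without) and 2 in the lineage difference at 48 h; among calls made without the block, Cx3cr1 of Vg2+ against Vg4+ cells was the 1 lost. The GFP+ and GFP- numbers were the only ones to meet the rule for pairing, which needs 3 shared numbers. Exchanging the numbers of MEClo arrays, whose deviations ran opposite to those of the same number in MEChi (r = -0.13), gave 5 calls, as without the block.

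Leaving out single arrays gave 3 to 4 calls for CD4 at 48 h (3 without control replicate 2), 3 to 4 for CD8 at 1 h (3 without replicate 1 of the 1 h arrays), 1 to 3 for CD8 at 5 h (1 without replicate 2 of the 5 h arrays, 2 without control replicate 2), 1 to 2 for the lineage difference at 48 h (2 without CD8 48 h replicate 1), 0 to 3 for KLRG1 (0 without KLRG1+ replicate 2, 1 without CD127+ replicate 2), 0 to 2 for fat macrophages (2 without replicate 1) and 0 to 1 for mast cells (1 without peritoneal replicate 5). Where an arm was left with 1 array, it was assumed to vary like the other groups of its fit.

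No other probe set was compared, since each receptor had 1. Groups of 2 or 3 arrays limit what small changes can be detected, and the 12 groups of a single array were tested in no comparison.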
